A study of Drosophila melanogaster with 6 samples.

Results

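The innexins are the proteins that build gap junctions in Drosophila, and the genes ogre, Inx2, Inx3, Inx5, Inx6, Inx7, shakB and zpg encode them. These 8 genes were chosen by their symbols from the 17649 genes of the deposited table, and each was found once. Expression was measured by RNA sequencing of whole eyes dissected from Canton S pupae, a wild-type strain, at 40 h APF (hours after puparium formation) and at 21 h APF. Each stage had 3 biological replicates, each a pool of eyes, and the labels name no transgene, mutation or treatment for either stage. The 40 h eye has finished its honeycomb lattice of pigment cells, whereas cells of the 21 h eye are still being recruited, rearranged and removed by apoptosis. The table gives each gene 1 value per stage in FPKM (the number of sequenced fragments divided by transcript length and by library size), which Cuffdiff pooled over the 3 replicates, so each value below is the authors' pooled FPKM with no SD. Since the table used here has no value for a single library and no depth, no test across replicates was made, and whether a difference exceeds the spread between replicates was not assessed here.

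A gap junction is a patch of channels that joins the cytoplasm of neighboring cells and passes ions and small molecules such as calcium and inositol trisphosphate. An innexin crosses the membrane several times, several innexins form a hemichannel, and hemichannels of adjacent cells dock to each other. Channels may hold one kind of innexin or a mixture of kinds. Innexins are unrelated in sequence to the connexins that form gap junctions of vertebrates, although they serve the same function. In flies, Inx2, Inx3 and ogre act mainly in epithelia and glia, shakB in electrical synapses of neurons, and zpg in the germline.

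The innexins of the pupal eye fell into 3 abundant genes, Inx2, ogre and Inx3, 1 gene that was far more abundant at 40 h than at 21 h APF, shakB, 1 gene of low level, Inx7, and 3 genes under 1 FPKM at both stages, Inx5, Inx6 and zpg. To be counted, a gene had to reach 1 FPKM at one of the stages. The ratio of 40 h over 21 h was then taken on the log2 scale after adding 0.1 FPKM to each value, and a ratio of at least 1 in size, 2-fold on that scale, counted as a change. Of the 5 innexins past this minimum, shakB was 2-fold higher at 40 h APF, no gene was 2-fold lower, and 4 genes changed less. By the same rule, 25.5% of all 9828 genes past the minimum changed, with 14.8% higher and 10.7% lower at 40 h APF. A count of 1 in 5 is therefore near what all genes gave. The median log2 ratio of the 5 innexins was 0.77, against -0.017 over all genes past the minimum, and the median of so few genes is the value of Inx7.

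**Figure D1:**
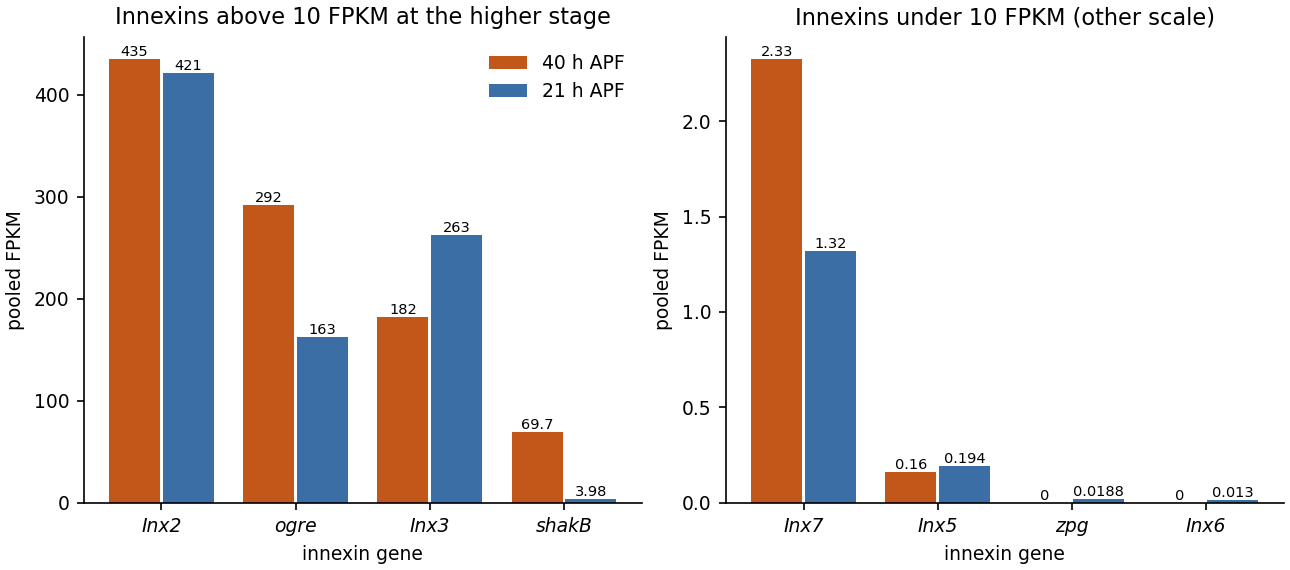
Pooled FPKM of each innexin gene at 40 h APF (orange) and 21 h APF (blue), with 1 pooled value per bar and no error bar because values of single replicates were not used. The left panel holds the 4 genes above 10 FPKM at the higher stage, and the right panel, on its own scale, the other 4 genes. shakB had 69.7 FPKM at 40 h against 3.98 at 21 h APF, whereas the 2 bars of Inx2 are of nearly the same height.

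Inx2 (FBgn0027108, X:6998672-7004151 of BDGP6, plus strand) encodes an epithelial innexin that is also used by glia, and it was the most abundant member at both stages. Its level was 435 FPKM at 40 h and 421 at 21 h APF, a difference of 13.8 FPKM and a log2 ratio of 0.046. Inx2 was thus the 200th most abundant gene of the table at 40 h and the 181st at 21 h APF. Of all genes past the minimum, 94.4% had a larger change in either direction. The genes closest to Inx2 in level at both stages, by the distance between their log2(FPKM + 0.1) values over the 2 stages, were RpS14b, Sod1 and blw, at distances of 0.046, 0.059 and 0.085. These genes encode a ribosomal protein, a superoxide dismutase and a subunit of the mitochondrial ATP synthase. RpS14b has a near-identical copy in the genome, and its value may share reads with that copy. With 2 values per gene this likeness describes level and ratio only.

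The gene ogre (FBgn0004646, X:6973620-6991318, minus strand), also called Inx1, is named for the small optic lobes of its mutants. Its level was 292 FPKM in 40 h eyes and 163 FPKM in 21 h eyes. The difference of 129 FPKM was the largest of any innexin in absolute terms, although it was 1.79-fold and a log2 ratio of 0.84, below the 2-fold limit. Of all genes past the minimum, 17.3% had a higher ratio. The annotation gives ogre 6 transcripts from 5 starts that all encode a protein of 362 residues, so the gene value sums messages with different starts. The noncoding gene CR44084 lies on the opposite strand within ogre and covers 10.2% of its exon bases. Because the sources used here do not state whether reads were assigned by strand, reads of the shared bases cannot be told apart, and CR44084 itself was listed at 1.05 FPKM at 40 h against 0.609 at 21 h APF.

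Inx3 (FBgn0265274, 3R:28853606-28859497, minus strand) encodes an epithelial innexin that can form mixed channels with Inx2. It had 182 FPKM at 40 h and 263 at 21 h APF, a log2 ratio of -0.53, and was the only one of the 5 counted members whose value was lower at 40 h. Of all genes past the minimum, 45.1% moved more than this in either direction. Inx3 lies inside an intron of spg on the opposite strand and shares no exon base with it, and spg had 14.1 FPKM in 40 h eyes and 10.1 FPKM in 21 h eyes.

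The order of the 3 abundant innexins differed between the stages. At 40 h APF the order was Inx2, ogre and Inx3, and at 21 h APF it was Inx2, Inx3 and ogre. This difference in order holds per length of transcript. When FPKM was multiplied by the exon bases of each gene, merged over its transcripts, the order was Inx2, ogre and Inx3 at both stages. The shares were 22.0% for ogre and 7.83% for Inx3 at 40 h, against 17.7% for ogre and 16.3% for Inx3 at 21 h APF. Merged bases can exceed the length of a single transcript, so this product does not count fragments. A ratio of 2 genes within a stage does not depend on how the stages were scaled to each other. The ratio of ogre to Inx3 was 1.60 at 40 h and 0.619 at 21 h APF, so the ratio was 2.58 times as high at the later stage. Inx2 stood to Inx3 as 2.39 to 1 at 40 h and as 1.60 to 1 at 21 h APF, and to ogre as 1.49 to 1 at 40 h and as 2.59 to 1 at 21 h APF. FPKM is a value per length of transcript, so these levels can be set beside each other, with 2 limits. With no spread over replicates, it is not known which neighbors in the order differ beyond their error. The authors' aligner does not split reads across introns, so reads over exon junctions can be lost. Merged over transcripts, Inx2 has 1 exon, ogre 11 and Inx3 7, and the effect of this on their levels was not tested. In bulk tissue, a change in the number of cells that express a gene and a change in RNA per cell cannot be told apart.

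Summed over the 8 genes, innexin expression was 981 FPKM at 40 h against 852 at 21 h APF, a ratio of 1.15, whereas the sum over all genes of the table had a ratio of 1.01. Innexins made up 0.174% of the summed FPKM at 40 h and 0.153% at 21 h APF. Inx2, ogre and Inx3 together held 92.6% of the innexin FPKM at 40 h and 99.4% at 21 h APF. The share of Inx2 was 44.3% at 40 h and 49.4% at 21 h APF. For ogre it was 29.7% at 40 h and 19.1% at 21 h APF, and for Inx3 18.6% at 40 h and 30.8% at 21 h APF. The share of shakB was 7.10% at 40 h and 0.468% at 21 h APF. Without shakB, the sum was 911 FPKM at 40 h and 848 at 21 h APF, a ratio of 1.07.

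**Figure D2:**
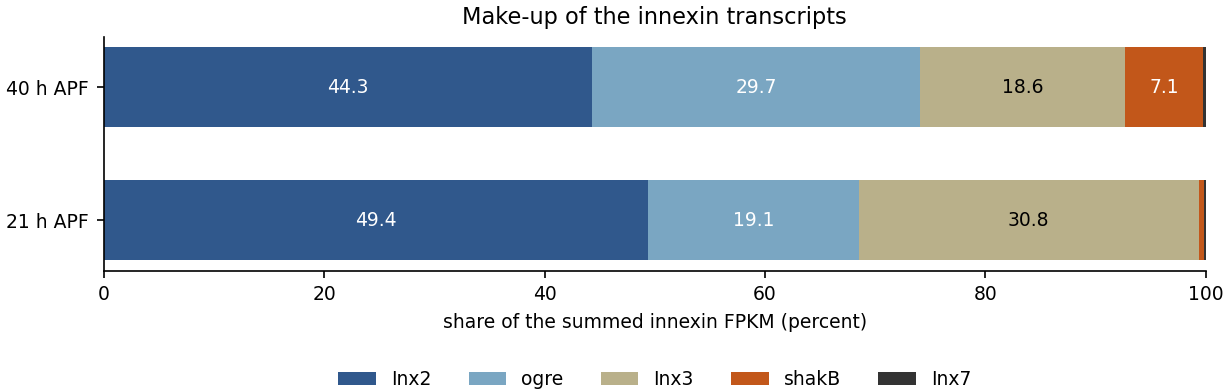
Share of each innexin in the summed innexin FPKM (percent) at 40 h APF (upper bar) and 21 h APF (lower bar), with Inx7 as the thin band at the right end. ogre held 29.7% at 40 h and 19.1% at 21 h, Inx3 18.6% at 40 h and 30.8% at 21 h, and shakB 7.10% at 40 h and 0.468% at 21 h APF. Inx5, Inx6 and zpg are too low to be drawn.

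shakB (FBgn0085387, X:20761071-20927050, minus strand), the innexin of electrical synapses such as those of the giant fiber escape circuit, was the member that changed. It had 69.7 FPKM at 40 h APF against 3.98 FPKM at 21 h APF, a 17.5-fold difference in FPKM and a log2 ratio of 4.09 with the 0.1 FPKM added. Only 233 of the 9828 genes past the minimum, 2.37%, had a higher ratio. In rank, shakB was the 1412th most abundant gene at 40 h and the 7711th at 21 h APF. It still remained the fourth innexin at 40 h APF, since Inx2 was 6.24 times and ogre 4.18 times as abundant at that stage, against 106 times for Inx2 and 40.8 times for ogre at 21 h APF.

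The shakB gene spans 165980 bases, with 18308 bases of exon, 8 annotated transcripts and 7 transcript starts. Its transcripts encode proteins of 292 to 532 residues, which are known to differ in use between tissues and in the channels they form. The gene value does not tell these transcripts apart, so which of them account for the level at 40 h APF is not known from the table. The table places 6 other genes in the same locus as shakB, and by the annotation they lie within its span and share no exon base with it. The highest of them was CG1314 with 0.462 FPKM at 40 h, listed at 0 at 21 h APF. Closest to shakB in level and ratio were Ndae1, Xport-B and CG32333. Ndae1, a sodium-driven anion exchanger, had 65.5 FPKM in 40 h eyes and 3.28 FPKM in 21 h eyes. Xport-B, a chaperone for rhodopsin and the TRP channel, had 84.4 FPKM at 40 h against 4.42 at 21 h APF. CG32333 had 79.5 FPKM at 40 h and 4.97 at 21 h APF. Their distances from shakB on the log2 scale were 0.29, 0.31 and 0.36, wider than those of the genes around Inx2.

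**Figure D3:**
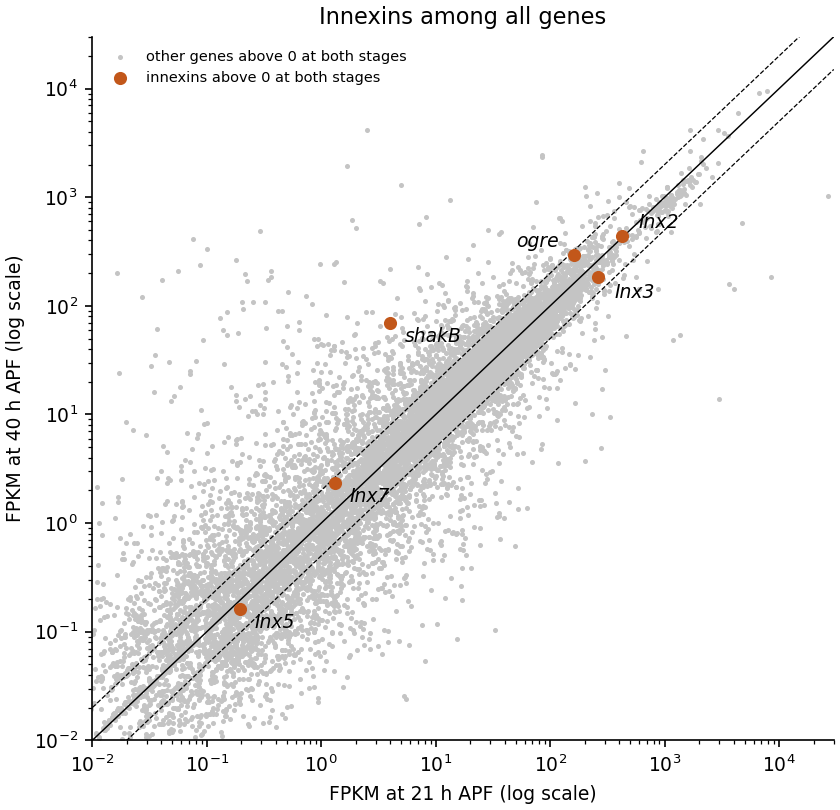
FPKM at 40 h APF against FPKM at 21 h APF, both on log scales, with each gene above 0 at both stages as a gray point, the 6 innexins above 0 at both stages in orange, the line of equal values solid and the 2-fold limits dashed. shakB, at 69.7 FPKM in 40 h eyes and 3.98 FPKM in 21 h eyes, lies far above the upper dashed line, and the other 5 innexins lie between the dashed lines.

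shakB is used by neurons of the lamina, the first optic neuropil, as well as in other neurons, and ogre has been reported to act in the retina for transmission to the lamina. The lists of marker genes were therefore set beside shakB. The 5 lamina neuron markers summed to 125 FPKM at 40 h against 73.4 at 21 h APF, and 2 of them were 2-fold higher at 40 h, erm with 30.7 FPKM against 9.51 FPKM at 21 h and bsh with 15.8 FPKM against 5.49 FPKM at 21 h APF. Of all genes past the minimum, 14.8% were 2-fold higher at 40 h. None of the 5 markers was at 0 at either stage. Among them dac, with 25.3 FPKM at 40 h and 21.3 at 21 h APF, is not particular to the lamina. The authors name its product, Dachshund, in the network that sets up the eye field, so the sum is not one of lamina genes alone. Among genes of the photoreceptors and eye field, the pan-neuronal gene elav had 89.6 FPKM at 40 h and 84.9 at 21 h APF, nSyb of synaptic vesicles had 166 FPKM in 40 h eyes and 91.7 FPKM in 21 h eyes, and brp of active zones had 168 FPKM at 40 h against 75.7 at 21 h APF. Other genes of that list had lower values at 40 h, among them chp, with 164 FPKM at 40 h against 370 at 21 h, gl, with 132 FPKM at 40 h against 235 at 21 h, and ro, with 1.41 FPKM at 40 h against 18.6 at 21 h APF, whereas the light-activated channel gene trp had 35.2 FPKM at 40 h against 0.0349 at 21 h APF. The median log2 ratio of the 11 genes of the list past the minimum was -0.36. The part of any cell type in the shakB value was not tested.

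ogre and Inx2 are both used by glia, so the 10 glial markers were read beside them. They summed to 642 FPKM at 40 h and 549 at 21 h APF, 5 were 2-fold higher at 40 h and none was 2-fold lower. By the same rule, 14.8% of all genes past the minimum were higher and 10.7% lower. The glial transcription factor gene repo had 40.4 FPKM in 40 h eyes and 40.5 FPKM in 21 h eyes, and moody of the blood-brain barrier had 56.6 FPKM at 40 h against 55.6 at 21 h APF, whereas the astrocyte marker alrm had 23.2 FPKM at 40 h and 1.89 at 21 h APF. Also counted as higher were Mdr65, with 114 FPKM at 40 h against 49.3 at 21 h, and wrapper, with 64.8 FPKM against 28.4. So were Eaat1, with 22.3 FPKM at 40 h against 5.30 at 21 h, and Gs2, with 11.4 FPKM against 3.44. The most abundant marker, nrv2, had 178 FPKM at 40 h and 145 at 21 h APF. The markers loco and Gli had lower values at 40 h. loco had 62.2 FPKM at 40 h against 124 at 21 h, just inside the limit, and Gli had 68.6 FPKM at 40 h against 96.0 at 21 h APF. No glial marker was at 0. Their part in the values of ogre and Inx2 was not tested.

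Inx7 (FBgn0027106, X:6991612-6993612, minus strand), which in the adult brain acts in memory circuits of the mushroom body, had 2.33 FPKM in 40 h eyes and 1.32 FPKM in 21 h eyes. Its log2 ratio of 0.77 was under the 2-fold limit. With a limit of 1.5-fold, Inx7 and ogre are counted with shakB as higher at 40 h APF, which makes 3 of 5 innexins, and none is lower. At that limit 41.2% of all genes past the minimum changed, with 22.6% higher at 40 h and 18.7% lower.

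The innexins ogre, Inx7 and Inx2 lie next to each other within 30.5 kb of the X chromosome. ogre and Inx7 run on the minus strand, 293 bases apart, with Inx7 ahead of the outermost start of ogre, and Inx2 runs on the plus strand. The noncoding gene CR43837 is the only gene of the table between Inx7 and Inx2, 872 bases from the start of Inx2, and had 1.95 FPKM at 40 h against 1.34 at 21 h APF. In this stretch the levels of adjacent genes were far apart, since ogre was 125 times as abundant as Inx7 at 40 h and 123 times at 21 h APF. The ratio of ogre to Inx7 was thus 1.02 times as high at 40 h as at 21 h APF, while Inx2 stood to Inx7 as 187 to 1 at 40 h and as 319 to 1 at 21 h APF. The septate junction gene bou lies within ogre on the opposite strand, with no exon base in common, and had 127 FPKM at 40 h and 157 at 21 h APF. On either side of the stretch, CG3040 had 28.1 FPKM in 40 h eyes and 19.3 FPKM in 21 h eyes, and cm, which encodes a subunit of the AP-3 adaptor complex, had 29.8 FPKM at 40 h against 27.9 at 21 h APF. From ogre to Inx2, the log2 ratios of the 6 genes ran from -0.30 for bou to 0.84 for ogre.

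**Figure D4:**
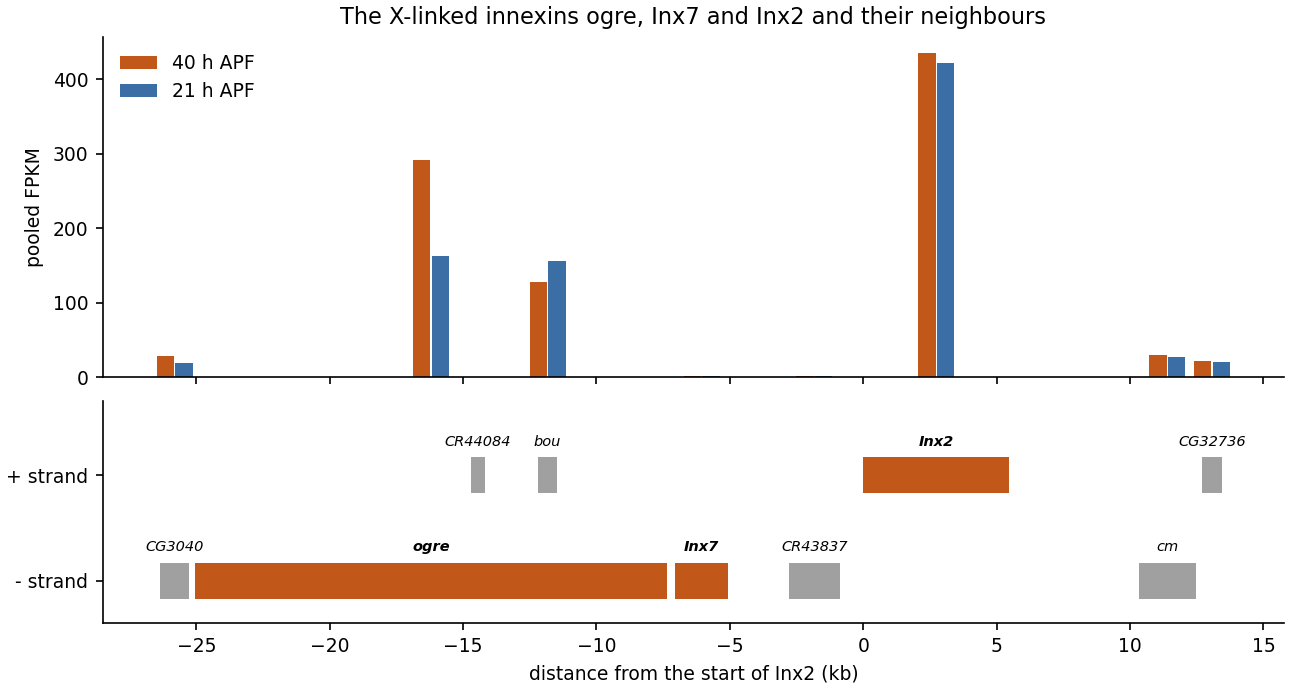
Upper panel, pooled FPKM at 40 h APF (orange) and 21 h APF (blue) of the genes around the X-linked innexins, drawn at the middle of each gene. Lower panel, the spans of the genes by strand against the distance from the start of Inx2 in kb, with innexins in orange and other genes in gray. ogre and Inx2 are the tallest pairs of bars, and Inx7 between them is near 0 with 2.33 FPKM at 40 h and 1.32 at 21 h APF.

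The levels of Inx5, Inx6 and zpg stayed below 1 FPKM at either stage, so they were not counted. Inx5 (FBgn0030989, X:19168777-19170883, minus strand) had 0.16 FPKM in 40 h eyes and 0.194 FPKM in 21 h eyes, and 6.50% of its exon bases are those of mir-4959, which was listed at 0 at both stages. Inx6 (FBgn0027107, X:20267821-20269769, minus strand), a partner of Inx7 in mushroom body circuits of the adult brain, was listed at 0 at 40 h and at 0.013 FPKM at 21 h APF. zpg (FBgn0024177, 3L:6604366-6606032, minus strand), the germline innexin that joins germ cells to the somatic cells of the gonad, was listed at 0 at 40 h and at 0.0188 FPKM at 21 h APF. The germline markers were low as well, with 6 of 7 under 1 FPKM at both stages and sums of 1.39 FPKM at 40 h against 2.78 at 21 h APF. No detection limit was set for these 3 innexins, and no fold change is given for Inx6 and zpg.

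By chromosome, 6 of the 8 innexins are X-linked, with Inx3 on 3R and zpg on 3L. The abundant genes Inx2, ogre and Inx3 encode proteins of 367, 362 and 395 residues. The low genes Inx7, Inx5 and Inx6 encode longer ones of 438, 419 and 481 residues, and zpg one of 367 residues. Inx7, Inx5 and Inx6 have 1 annotated transcript each, whereas the 4 innexins above 10 FPKM have 3 to 8.

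Gap junctions sit in the same lateral membranes as adherens and septate junctions, so the genes of those junctions were counted by the same rule. By that rule, 14.8% of all genes past the minimum were higher at 40 h APF and 10.7% lower. Of 24 septate junction genes matched, all were past the minimum and none changed 2-fold in either direction, with a median log2 ratio of 0.080. Their levels ranged from 57.6 to 491 FPKM at 40 h and up to 479 FPKM at 21 h APF, a range that holds Inx2, ogre and Inx3 at both stages. The most abundant by the higher of their 2 values were Atpalpha, with 491 FPKM at 40 h and 309 at 21 h, Lac, with 447 FPKM in 40 h eyes and 479 FPKM in 21 h eyes, Fas3, with 291 FPKM at 40 h against 259 at 21 h, and Mcr, with 214 FPKM at 40 h and 260 at 21 h APF. The gene nrv1, named after its value was seen, had a log2 ratio of 0.98, just inside the limit. ogre, with 0.84, was close to cora, with 0.88.

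Of 16 adherens junction genes, 1 was 2-fold higher at 40 h APF and 2 were lower, with a median log2 ratio of -0.12. Over all genes past the minimum, 14.8% were higher and 10.7% lower by the same rule. The beta-catenin gene arm, whose protein is known to bind Inx2 as well as E-cadherin, was the most abundant of the list. It had 597 FPKM in 40 h eyes and 564 FPKM in 21 h eyes, a log2 ratio of 0.081. The ratios of kirre, pyd and cno, at 0.045, 0.041 and 0.033, lay closer to that of Inx2. The next most abundant by the higher value were pyd, with 202 FPKM at 40 h against 196 at 21 h, ed, with 139 FPKM at 40 h against 164 at 21 h, and p120ctn, with 149 FPKM at 40 h against 139 at 21 h APF. The E-cadherin gene shg had 59.9 FPKM at 40 h against 73.1 at 21 h APF. The 3 genes that changed, named after their values were seen, were CadN2, with 2.80 FPKM at 40 h and 0.471 at 21 h, hbs, with 55.5 FPKM in 40 h eyes and 113 FPKM in 21 h eyes, and jub, with 13.9 FPKM at 40 h against 28.6 at 21 h APF. The ratios of the innexins therefore ran from that of Inx3, inside the range of the adherens junction list and just below the lowest septate junction ratio of -0.50 for l(2)gl, to that of shakB, which lay above both lists.

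**Figure D5:**
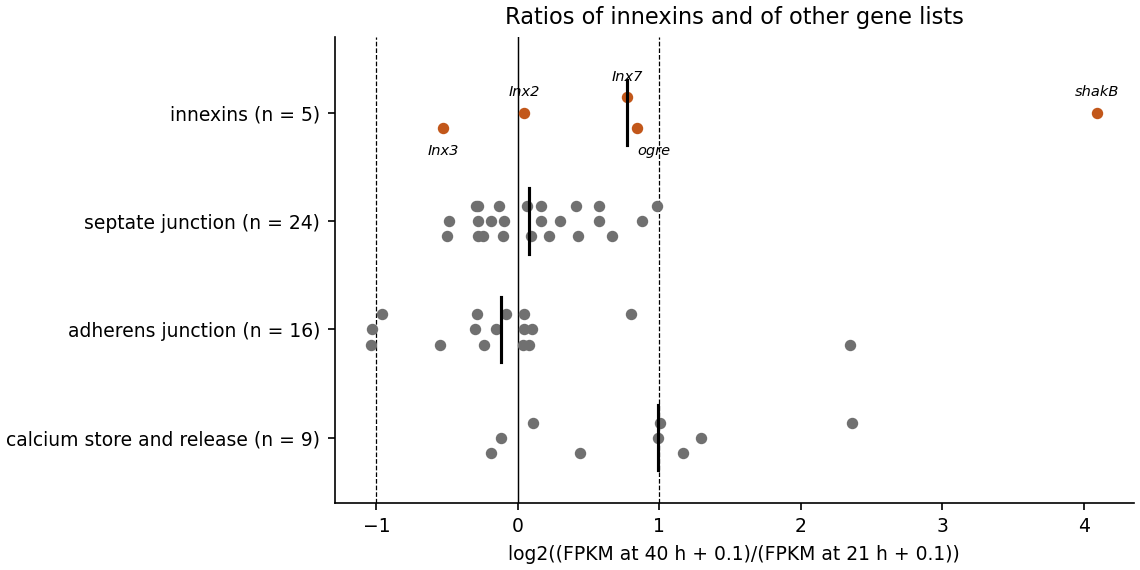
Log2 ratio of 40 h over 21 h APF, with 0.1 FPKM added to each value, of the 5 innexins past the minimum and of the septate junction, adherens junction and calcium lists, with 1 point per gene, spread vertically for legibility only. Short black lines mark medians and dashed lines the 2-fold limits. shakB, at 4.09, lies beyond the points of each other list, and all 24 septate junction genes lie between the dashed lines.

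Gap junctions pass calcium and inositol trisphosphate from cell to cell, and the genes of the calcium store were read beside them. Of 9 such genes, 4 were 2-fold higher at 40 h APF and none was 2-fold lower. Among all genes past the minimum, 14.8% were higher and 10.7% lower by the same rule. The median log2 ratio of the list was 0.99, which is the value of the calmodulin gene Cam. Cam had 912 FPKM at 40 h and 459 at 21 h APF, just under the limit. Itp-r83A, the inositol trisphosphate receptor gene, had 25.2 FPKM in 40 h eyes and 10.2 FPKM in 21 h eyes, and olf186-F, which encodes the Orai channel of the plasma membrane, had 77.1 FPKM at 40 h against 34.3 at 21 h APF. The calcium pump gene SERCA, with 82.9 FPKM at 40 h against 61.2 at 21 h, and Stim, the calcium sensor of the store, with 45.6 FPKM at 40 h against 42.4 at 21 h APF, stayed under the limit. The phospholipase C gene Plc21C was also counted, with 24.6 FPKM at 40 h and 12.2 at 21 h, a log2 ratio of 1.00. So was the ryanodine receptor gene RyR, with 3.26 FPKM in 40 h eyes and 0.553 FPKM in 21 h eyes. The phospholipase C genes norpA and sl of the list had lower values at 40 h, inside the limit. norpA had 25.7 FPKM at 40 h against 29.3 at 21 h APF. The log2 ratios were -0.19 for norpA and -0.12 for sl. These lists were not tested against other genes.

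The remaining marker lists describe the tissue. Over all genes past the minimum, 14.8% were 2-fold higher at 40 h APF and 10.7% lower. Of 11 photoreceptor and eye field genes past the minimum, 2 were 2-fold higher and 3 lower at 40 h APF, and ninaE, the gene of the major rhodopsin, was listed at 0 at 40 h and at 0.0694 FPKM at 21 h APF. Each of 6 cone and primary pigment cell genes had its lower value at 40 h, with a median log2 ratio of -0.55. By the 2-fold rule, 1 of them was lower and none higher. Of 6 muscle genes past the minimum, 4 were higher, namely up, Tm2, wupA and Mlc1, and 1, Act57B, was lower. The gene up, the highest of the 4 at 40 h, had 1.72 FPKM at 40 h against 0.0778 at 21 h. Act57B had 3.43 FPKM at 40 h against 12.6 at 21 h APF. Of 2 hemocyte genes past the minimum, Pxn was higher, with 53.4 FPKM at 40 h and 1.92 at 21 h. The other, crq, changed less, with 42.0 FPKM at 40 h and 31.2 at 21 h APF. Hml, under the minimum, was at or below 0.373 FPKM at both stages. None of 6 fat body genes, with sums of 47.8 FPKM in 40 h eyes and 68.6 FPKM in 21 h eyes, changed 2-fold. Nor did any of the 3 tracheal genes past the minimum. The tracheal list also held trh and btl, both under 1 FPKM at both stages. trh had 0.157 FPKM at 40 h and 0.36 at 21 h, and btl had 0.184 FPKM at 40 h and 0.519 at 21 h APF. The part of these cells in the innexin values was not tested.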

How the data were processed

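Eyes of Canton S pupae were dissected at 40 and 21 h APF, and 6 libraries, 3 per stage, were sequenced as 51-bp paired-end TruSeq libraries. The authors aligned the reads to BDGP6 with bowtie2, an aligner without spliced alignment, using Ensembl release 93 gene models, and quantified genes with Cuffdiff using geometric normalization and bias correction. Versions of these tools and the strand of the libraries are not given in the sources used here. The deposited FPKM are 1 value per gene and stage, pooled over replicates. The table also holds the authors' log2 fold change, test statistic, p-value, q-value and significance mark, which were not used. Depth is not in the table.

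Python 3.11.15, numpy 2.4.6, pandas 2.3.3 and matplotlib 3.10.9 were used. Ratios of 40 h over 21 h were taken on the log2 scale with a pseudocount of 0.1 FPKM, and a gene with at least 1 FPKM at the higher stage was counted as changed at 2-fold. The counting rule was tested on simulated data. Gene spans, exons and coding lengths came from Ensembl release 115 on the same assembly, in which 17512 of the 17649 identifiers occur, and coordinates are 1-based. Named were the 8 innexins, up to 4 of the most abundant genes of each list where shown, genes adjoining the innexins, and the 3 genes nearest to Inx2 and to shakB. Other genes named were chosen after their values were seen. Alternatives were other pseudocounts, minimums, fold limits and scalings, and genes with a locus of their own. The members and lists were chosen with earlier results of these data known. Sequence comparisons planned for the innexins were not made here.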

Additional observations from a re-analysis of the deposited data

How the results depend on the processing

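No paired analysis was possible because the values used here are pooled over the replicates of a stage, and for the same reason no replicate could be left out. Other pseudocounts and scalings, the 4 settings that change a ratio, gave 24 log2 ratios of Inx2, ogre, Inx3, Inx5, Inx7 and shakB, and each stayed on its side of the 2-fold limit. A 1.5-fold limit added ogre and Inx7, which gave 3 innexins higher at 40 h, 2219 of all genes higher and 1835 lower, 3 septate junction genes higher and 2 adherens junction genes higher. With a 3-fold limit, 935 of all genes were higher and 631 lower, 0 adherens junction genes were lower and 1 calcium gene was higher, and shakB remained counted. A pseudocount of 1 FPKM left 1 adherens junction gene lower and 3 calcium genes higher, against 4 calcium genes in the main count. The number of genes counted changed with the minimum. With no minimum, 1678 of 17649 genes were lower. With a minimum of 10 FPKM, 871 of 6867 genes were higher and 465 lower. At that minimum, 0 of 15 adherens junction genes and 3 of 8 calcium genes were higher. Centring on the median ratio put 1 septate junction gene and 5 calcium genes at 2-fold higher. Among genes with a locus of their own, only 2 counted innexins, Inx2 and Inx7, were left, so 0 were higher. Of the 4683 genes counted in that setting, 689 were higher and 565 lower. Of 5 adherens junction genes, 0 were higher and 1 lower, and of 3 calcium genes 1 was higher. In that setting shakB was left out although it shares no exon base with its neighbors. FPKM was also multiplied by the exon bases of each gene, merged over its annotated transcripts. This product is not a share of fragments, since merged bases can exceed the length of a single transcript. For shakB, 8 transcripts merge to 18308 bases, and its place in the order rests on that length. The order at 40 h was then Inx2, shakB with 24.4%, ogre with 22.0% and Inx3 with 7.83%. At 21 h, ogre with 17.7% preceded Inx3 with 16.3%. Inx2, ogre and Inx3 thus had the same order at both stages on this scale. Rescaling both stages to the same sum shifted log2 ratios by at most 0.012, which put 1 glial marker at 2-fold lower and left 3 calcium genes higher.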

Other observations

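Genes adjoining the innexins gave further values. The noncoding gene CR43838 lies 117 bases past the 3′ end of shakB on the same strand and had 4.16 FPKM at 40 h against 0.579 at 21 h APF, a log2 ratio of 2.65 in the same direction as that of shakB. On the other side, CG11227 had 0.0269 FPKM at 40 h and was listed at 0 at 21 h APF. Around the low gene Inx5, CG33939, 193 bases away, had 10.9 FPKM at 40 h and 40.2 at 21 h APF, and RhoGAP18B had 14.5 FPKM in 40 h eyes and 21.4 FPKM in 21 h eyes. Beside Inx3, CG33203 had 11.4 FPKM at 40 h against 3.75 at 21 h, and Apc had 50.5 FPKM at 40 h and 33.0 at 21 h APF, both with the higher value at 40 h where that of Inx3 was at 21 h. The noncoding gene CR45504 next to Inx6 had 0.944 FPKM in 40 h eyes and 5.02 FPKM in 21 h eyes. Beside zpg, ndl was under 1 FPKM at both stages.

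The difference in summed innexin FPKM between the stages, 129 FPKM, equals that of ogre alone to 3 digits, because the differences of 65.7 FPKM for shakB, 13.8 FPKM for Inx2 and 1.01 FPKM for Inx7 stood against one of -80.5 FPKM for Inx3.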
